A study of Mus musculus with 12 samples.

Results

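The G1/S set described here holds 10 mouse genes that carry a cell from G1 into S phase: the D-type cyclins Ccnd2 and Ccnd3, their kinases Cdk4 and Cdk6, the E-type cyclins Ccne1 and Ccne2, their kinase Cdk2, the phosphatase Cdc25a, and the inhibitors Cdkn1b and Cdkn2c. They were taken by symbol from a gene count table of 54232 rows. All 10 were found once, and all 10 passed the filter on low counts that 15679 genes passed. RNA was measured in naive CD4+ T cells purified from mouse spleen and peripheral lymph nodes (labelled pLN), either Ddx55-KO or WT. Anti-CD3 at 5 ug/ml with anti-CD28 at 2.5 ug/ml, coated on the plate, was the stimulus. The 6 groups were Ddx55-KO and WT cells at 0 h, at 8 h and at 24 h, with 2 libraries each (12 in all). No other allele or agent is labelled for any group. The labels leave out how and in which cells Ddx55 was removed, and the age and number of the animals.

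In a resting T cell Cdkn1b (p27Kip1) holds cyclin-dependent kinases inactive. Engagement of the T cell receptor and CD28 raises cyclin D, which binds Cdk4 and Cdk6 and starts the phosphorylation of retinoblastoma proteins. That releases E2F factors, which drive transcription of cyclin E and other S phase genes, and cyclin E with Cdk2 completes the step. Cdc25a removes inhibitory phosphates from Cdk2, and Cdkn2c (p18INK4c) binds Cdk4 and Cdk6 and keeps cyclin D away.

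Gene counts per library lay between 16810375 and 19126498. Levels are CPM, counts scaled to a common library size with TMM factors, and levels of different genes are compared only as RPKM, the same value per 1000 bases of annotated exon. Differences are log2 fold changes ± SE from 1 edgeR quasi-likelihood fit of all 12 libraries, and a gene "rose" or "fell" only where the p adjusted over all 15679 genes (Benjamini-Hochberg, two-sided) was under 0.05. Ddx55 stood at 19.5 and 19.0 CPM in KO cells and 45.3 and 51.2 CPM in WT cells at 0 h, at 18.0 and 17.1 against 68.7 and 64.1 CPM at 8 h, and at 14.7 and 14.4 against 52.9 and 55.2 CPM at 24 h. It was lower in each KO library (log2 fold change -1.33 at 0 h, -1.92 at 8 h and -1.89 at 24 h). KO cells kept 39.9%, 26.4% and 27.0% of the WT mean at these times. The source of this remaining RNA was not tested. All 16 T cell identity genes and all 9 naive T cell genes examined were detected in each library. At 24 h 5 of the 16 were higher and 1 lower in KO cells, and 4 of the 9 were higher and 1 lower. Of all genes tested 38.5% were called in that comparison, 17.9% higher and 20.7% lower. Nothing in the labels says that the 2 libraries per group are from different animals, so each p measures the spread between these samples, which may be technical.

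Markers of several other cell types differed between the genotypes. Of all genes tested 4.63% were called higher in KO cells at 0 h, 1.9% at 8 h and 17.9% at 24 h. The summed level of 11 neutrophil and granulocyte progenitor genes was 511 to 512 CPM in KO cells and 13.2 to 56.0 CPM in WT cells at 0 h, where 8 of the 11 were higher in KO cells. It was 16.8 to 45.6 against 1.11 to 1.60 CPM at 8 h and 22.2 to 87.3 against 0.433 to 0.593 CPM at 24 h. In WT cells S100a8, Ltf and Ngp were at 0 in both libraries at 8 h, and Elane, S100a9, Cebpe, Ltf, Ngp and Camp at 24 h. In KO cells Ltf was also at 0 in both libraries at 24 h. S100a9 (0.0545 and 0.755 CPM), Ngp (0.109 and 0.0539 CPM) and Camp (0 and 0.108 CPM) were near 0 there. The largest values in KO cells at 24 h were Ctsg (12.3 and 51.0 CPM), Mpo (4.30 and 15.9 CPM) and Ms4a3 (3.70 and 13.5 CPM). The 8 basophil and mast cell genes summed to 296 to 786 CPM in the KO cells and 18.5 to 40.0 CPM in WT cells at 0 h (1 of 8 higher), to 115 to 379 against 8.09 to 10.6 CPM at 8 h, and to 168 to 608 against 8.61 to 9.81 CPM at 24 h (7 of 8 higher). The 6 stem and progenitor genes summed to 31.0 to 36.5 against 6.26 to 7.80 CPM at 0 h, where 4 of 5 tested were higher. They summed to 15.4 to 22.5 against 3.34 to 3.75 CPM at 8 h (2 of 5 higher), and to 11.2 to 18.5 against 0.970 to 1.62 CPM at 24 h (5 of 5 higher). The 8 CD8 T and NK cell genes summed to 159 to 272 against 106 to 109 CPM at 0 h (3 of 8 higher). They summed to 56.5 to 81.5 against 34.4 to 35.7 CPM at 8 h (1 of 8 higher). At 24 h their sums were 108 to 169 against 30.4 to 33.4 CPM (4 of 8 higher). The largest KO values there were Eomes (95.7 and 45.6 CPM) and Nkg7 (52.6 and 45.7 CPM). Cd8a overlapped there (1.20 and 0.701 against 1.67 and 1.19 CPM), as did Cd8b1 (5.77 and 4.85 against 4.69 and 6.55 CPM). Klrd1, Ncr1, Gzma and Prf1 lay higher in both KO libraries than in both WT libraries at 24 h. The erythroid and platelet sums overlapped at 0 h (117 to 233 against 109 to 365 CPM) and 8 h (65.4 to 67.6 against 36.2 to 150 CPM). At 24 h they were 20.4 to 22.0 against 4.11 to 14.9 CPM. Monocyte and macrophage genes summed to 43.8 to 104 against 25.5 to 37.1 CPM at 0 h (1 of 7 tested higher), and B cell genes to 6.61 to 7.22 against 4.03 to 4.25 CPM. In bulk RNA a change in the number of cells of one type cannot be told apart from a change of RNA per cell. The part of these cells in the results below was not tested.

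Start-site sequence from RefSeq (GRCm38.p6) was at hand for 8 of the 10 genes, in 10 windows of 300 bases from 250 before to 50 after a start; Ccnd2 and Ccne2 had none. The windows were searched on both strands for the E2F consensus words TTTCCCGC, TTTCGCGC, TTTGGCGC and TTTGCCGC, which are named for the factors that cyclin D kinases release. Cdc25a and Cdk2 each held 1 match, 67 and 140 bases before the start, and 2.3% of all 32851 windows held any. The palindrome CACGTG, the E-box core bound by MYC with MAX and by related factors, was searched after the sequences had been seen. Cdk4 held 4 copies, 172, 118, 98 and 11 bases before the start, Cdk6 and Cdkn2c held 1 each, and Ccne1 held neither kind of word. Of all windows 7.15% held at least 1 copy and 0.024% (8 windows) at least 4. The 250 bases before these 3 starts are shown because they hold the E2F words and the 4 copies of CACGTG; capitals mark the matches, and no E2F word overlaps a CACGTG.
Cdc25a (chr9:109875329-109875578, plus strand): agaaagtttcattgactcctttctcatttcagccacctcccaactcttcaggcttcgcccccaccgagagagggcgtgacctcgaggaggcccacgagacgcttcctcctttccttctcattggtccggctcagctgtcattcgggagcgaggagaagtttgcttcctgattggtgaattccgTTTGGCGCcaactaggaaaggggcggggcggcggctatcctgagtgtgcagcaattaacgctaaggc
Cdk2 (chr10:128705052-128705301, minus strand): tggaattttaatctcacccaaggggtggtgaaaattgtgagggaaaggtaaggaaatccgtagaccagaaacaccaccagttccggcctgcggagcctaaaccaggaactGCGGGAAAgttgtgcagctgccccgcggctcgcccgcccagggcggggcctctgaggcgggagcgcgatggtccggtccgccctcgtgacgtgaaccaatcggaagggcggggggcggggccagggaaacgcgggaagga
Cdk4 (chr10:127063285-127063534, plus strand): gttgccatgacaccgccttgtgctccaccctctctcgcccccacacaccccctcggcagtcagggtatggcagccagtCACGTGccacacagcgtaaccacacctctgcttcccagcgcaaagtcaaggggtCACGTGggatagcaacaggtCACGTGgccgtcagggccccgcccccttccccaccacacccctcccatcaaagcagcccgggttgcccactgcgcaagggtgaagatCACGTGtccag

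Cyclin D2 RNA overlapped between the genotypes after 24 h, whereas cyclin D3 RNA was lower in KO cells. Ccnd2 (GRCm38 chromosome 6, 127125162 to 127152193) stood in KO cells at 459 and 594 CPM at 0 h, 1155 and 1216 CPM at 8 h, and 1164 and 1055 CPM at 24 h. WT cells had 369 and 435 CPM at 0 h, 1334 and 1365 CPM at 8 h, and 1104 and 1056 CPM at 24 h. The 24 h libraries of the genotypes overlap, and those at 0 h and 8 h do not. Ccnd2 rose from 0 h to 8 h by 1.17 ± 0.13 in KO cells (adjusted p = 1.08e-06) and by 1.75 ± 0.13 in WT cells (adjusted p = 1.43e-08). The KO effect passed at no time: it was 0.39 ± 0.12 in resting cells (adjusted p = 0.0903), -0.19 ± 0.12 after 8 h (adjusted p = 0.563) and 0.04 ± 0.12 after 24 h (adjusted p = 0.839). DESeq2 called the 0 h value (0.41, adjusted p = 0.02), and so did the fit without KO 0 h replicate 1 (0.57, adjusted p = 0.0149). Between 8 h and 24 h Ccnd2 gave -0.10 ± 0.12 in KO cells (adjusted p = 0.597) and fell in WT cells (-0.32 ± 0.12, adjusted p = 0.0486). The WT call was lost with library totals (-0.31, adjusted p = 0.0568), without WT 8 h replicate 1 or 2, and without WT 24 h replicate 1 or 2 (adjusted p from 0.106 to 0.198).

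Ccnd3 (chromosome 17, 47505051 to 47599691) dipped and returned in WT cells. The gene Bysl on the opposite strand covers 4.1% of Ccnd3 exon bases and had 26629 counts over the 12 libraries. Whether counting used the strand is not stated. In KO cells Ccnd3 stood at 307 and 236 CPM at 0 h, 63.7 and 71.4 CPM at 8 h, and 83.8 and 91.7 CPM at 24 h. The WT libraries gave 204 and 189 CPM at 0 h, 61.8 and 71.1 CPM at 8 h, and 204 and 198 CPM at 24 h. Both KO libraries lay above both WT libraries at 0 h, the genotypes overlapped at 8 h, and both KO libraries lay below at 24 h. By 8 h it fell in KO cells (-2.01 ± 0.12, adjusted p = 3.04e-09) and in WT cells (-1.57 ± 0.12, adjusted p = 3.23e-08). It then rose by 0.38 ± 0.12 in KO cells (adjusted p = 0.0268) and by 1.59 ± 0.12 in WT cells (adjusted p = 1.02e-07). The KO rise was not called without KO 8 h replicate 1 (0.30, adjusted p = 0.163), without KO 24 h replicate 1 (0.43, adjusted p = 0.0533) or without KO 24 h replicate 2 (0.31, adjusted p = 0.17). KO against WT, Ccnd3 was lower at 24 h (-1.19 ± 0.12, adjusted p = 2.29e-06). It was higher at 0 h (0.46 ± 0.12, adjusted p = 0.0328), and that call was lost when only the 4 unstimulated libraries were fitted (0.49, adjusted p = 0.138), without KO 0 h replicate 1 (0.27, adjusted p = 0.236), and without WT 0 h replicate 1 (0.52, adjusted p = 0.0893) or 2 (0.41, adjusted p = 0.237).

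**Figure D1:**
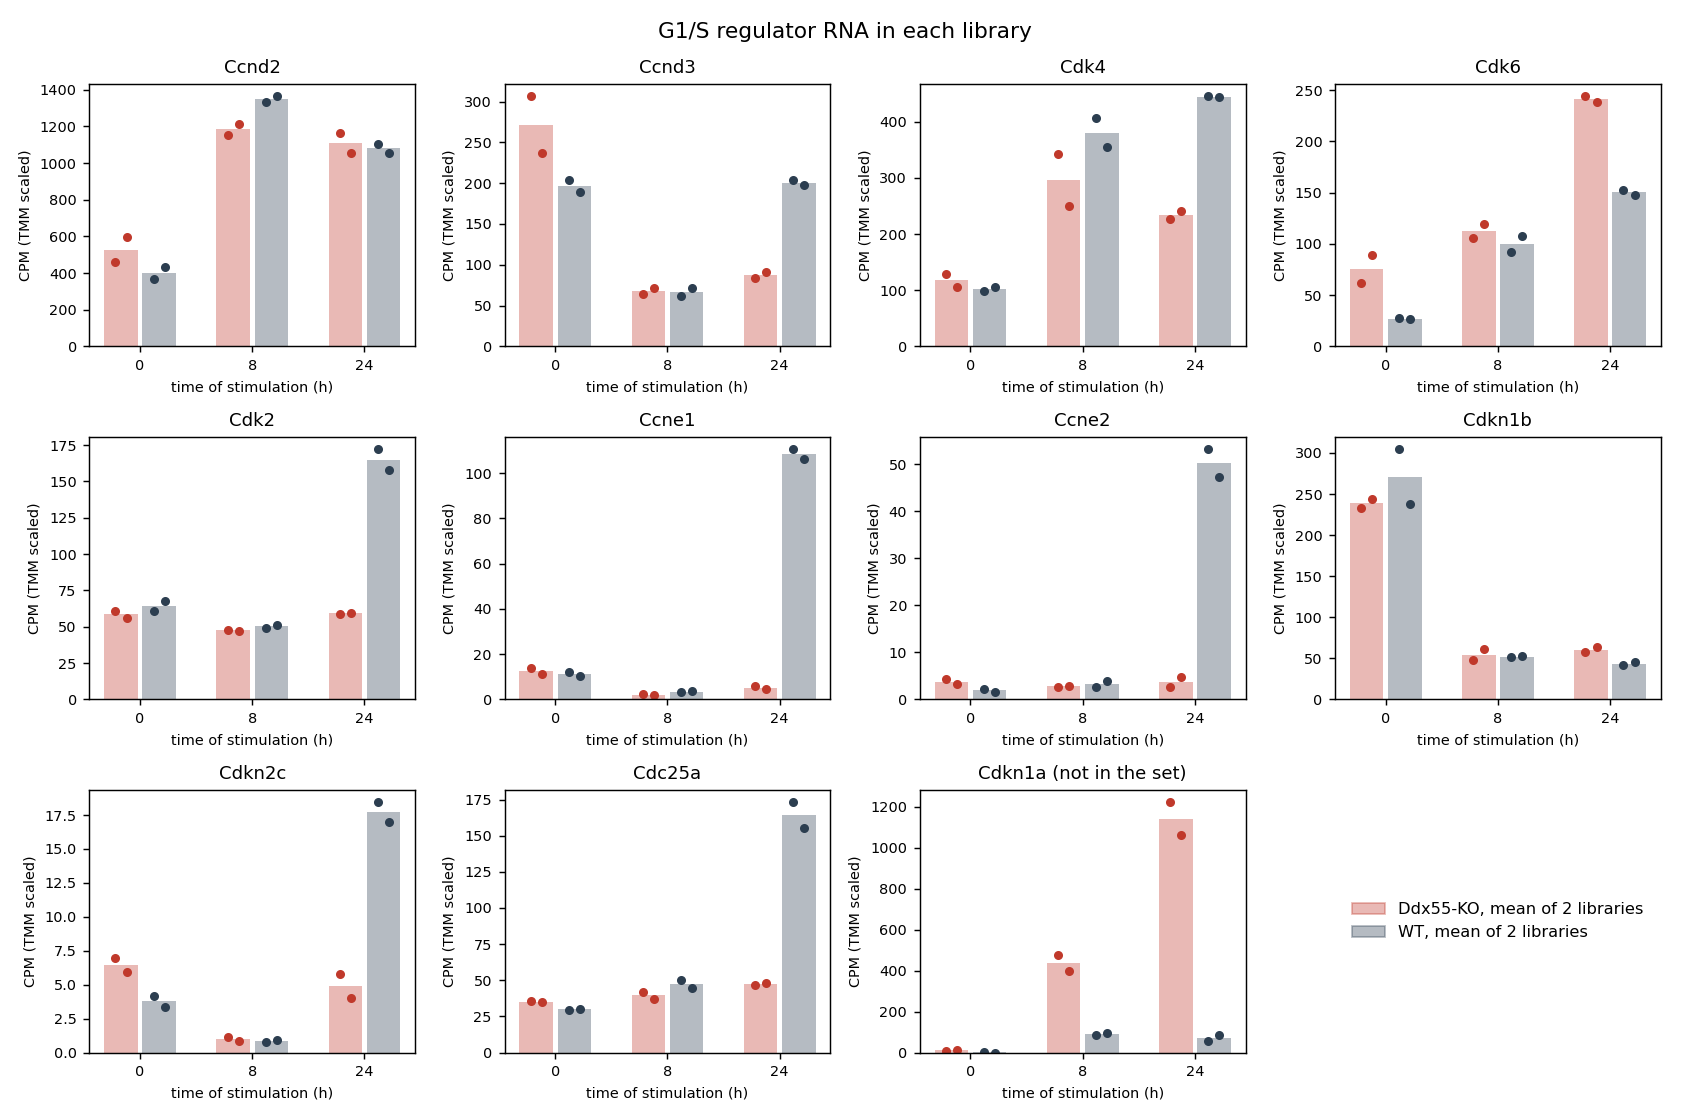
RNA level (CPM, TMM scaled, vertical axis from 0) of the 10 genes and of Cdkn1a at 0, 8 and 24 h of stimulation; bars are means of 2 libraries, points are libraries, and Ddx55-KO stands left of WT at each time. At 24 h Ccne1 stands at 5.77 and 4.42 CPM in KO cells, against 110.5 and 106 CPM in WT cells, while Ccnd2 overlaps between the genotypes.

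Of the D cyclin kinases, Cdk4 was lower and Cdk6 higher in KO cells at 24 h. Cdk4 (chromosome 10, 127063534 to 127067920) stood in KO cells at 129 and 106 CPM at 0 h, 343 and 250.3 CPM at 8 h, and 226 and 240.3 CPM at 24 h. In WT cells it stood at 97.8 and 106 CPM at 0 h, 406 and 355 CPM at 8 h, and 446 and 444 CPM at 24 h. Only the 0 h libraries of the genotypes overlap. By 8 h Cdk4 rose by 1.33 ± 0.14 in KO cells (adjusted p = 9.74e-07) and by 1.90 ± 0.14 in WT cells (adjusted p = 2.38e-08). KO against WT it gave -0.36 ± 0.14 at 8 h (adjusted p = 0.209), and -0.61 without KO 8 h replicate 1 (adjusted p = 0.0256). At 24 h it was lower in KO cells by -0.93 ± 0.14 (adjusted p = 9.01e-05), at 52.5% of the WT mean.

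Between 8 h and 24 h Cdk4 gave -0.34 ± 0.14 in KO cells (adjusted p = 0.0636) and 0.23 ± 0.13 in WT cells (adjusted p = 0.2). The KO value was called lower with RLE size factors (-0.38, adjusted p = 0.042), with DESeq2 (-0.38, adjusted p = 0.0236), with library totals (-0.34, adjusted p = 0.0489) and without KO 8 h replicate 2 (-0.57, adjusted p = 0.00314). The WT value was called higher when only the groups compared were fitted (0.20, adjusted p = 0.0283). The gene Tspan31 on the opposite strand covers 19.7% of Cdk4 exon bases and had 4008 counts over the 12 libraries. The sources used here do not say whether counting used the strand.

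Cdk6 (chromosome 5, 3341485 to 3531008) was the gene of the set with the most RNA in KO relative to WT cells at 0 h. In KO cells it stood at 62.1 and 89.0 CPM at 0 h, 105 and 119 CPM at 8 h, and 244 and 238 CPM at 24 h. WT cells had 27.2 and 26.4 CPM at 0 h, 91.8 and 108 CPM at 8 h, and 153 and 147 CPM at 24 h. KO cells lay above WT cells at 0 h and 24 h, and the libraries overlapped at 8 h. The KO effect was 1.495 ± 0.15 in resting cells (adjusted p = 0.0001), 0.17 ± 0.14 after 8 h (adjusted p = 0.657) and 0.68 ± 0.14 after 24 h (adjusted p = 0.00121). Its fall from 0 h to 8 h was itself called (-1.32 ± 0.20, adjusted p = 0.00559). Cdk6 rose by 8 h in both genotypes, by 0.57 ± 0.14 in KO cells (adjusted p = 0.00244) and by 1.90 ± 0.15 in WT cells (adjusted p = 4.52e-08). It rose again from 8 h to 24 h, by 1.10 ± 0.14 in KO cells (adjusted p = 3.42e-05) and by 0.59 ± 0.14 in WT cells (adjusted p = 0.00293). The summed granulocyte, basophil and progenitor markers given above were larger in KO cells at 0 h and 24 h, and also at 8 h, where Cdk6 overlapped. Of the genes tested 8 of 11, 1 of 8 and 4 of 5 were called higher at 0 h. The counts were 0 of 11, 0 of 8 and 2 of 5 at 8 h, and 5 of 11, 7 of 8 and 5 of 5 at 24 h. Of all genes tested 4.63% were called higher at 0 h, 1.9% at 8 h and 17.9% at 24 h. The part of these markers in the Cdk6 level was not tested. KO replicate 2 had the higher basophil and mast cell sum at 0 h (786 against 296 CPM), 8 h (379 against 115 CPM) and 24 h (608 against 168 CPM). Its Cdk6 level was the higher of the KO libraries at 0 h and 8 h and the lower at 24 h. The KO effect on Cdk6 at 0 h was 1.21 without KO 0 h replicate 2 and 1.74 without KO 0 h replicate 1.

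Both E cyclins were induced in WT cells between 8 h and 24 h, and KO cells held 4.70% and 7.50% of the WT mean at 24 h. Ccne1 (chromosome 7, 38097984 to 38107534) stood in KO cells at 13.9 and 11.1 CPM at 0 h, 2.26 and 1.77 CPM at 8 h, and 5.77 and 4.42 CPM at 24 h. The WT libraries gave 12.3 and 10.2 CPM at 0 h, 3.25 and 3.69 CPM at 8 h, and 110.5 and 106 CPM at 24 h. The genotypes overlap at 0 h, and both KO libraries lie below both WT libraries at 8 h and 24 h. By 8 h Ccne1 fell in KO cells (-2.63 ± 0.19, adjusted p = 1.83e-08) and in WT cells (-1.70 ± 0.18, adjusted p = 9.28e-07). It then rose by 1.34 ± 0.21 in KO cells (adjusted p = 0.000195) and by 4.96 ± 0.18 in WT cells (adjusted p = 3.79e-11). In KO cells the 24 h level stayed below that of unstimulated cells in both libraries.

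KO against WT, Ccne1 gave 0.15 ± 0.16 in resting cells (adjusted p = 0.693), and after 8 h -0.78 ± 0.22 (adjusted p = 0.0785). At 24 h it was lower (-4.41 ± 0.17, adjusted p = 1.74e-10). The 8 h value rests on 40 and 32 counts in KO and 59 and 63 counts in WT libraries, and it was called with no filter on low counts (-0.79, adjusted p = 0.0145).

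Ccne2 (chromosome 4, 11191351 to 11204779) was low until 8 h in both genotypes. In KO cells it stood at 4.35 and 3.26 CPM at 0 h, 2.71 and 2.93 CPM at 8 h, and 2.72 and 4.80 CPM at 24 h. In WT cells it stood at 2.19 and 1.69 CPM at 0 h, 2.59 and 3.87 CPM at 8 h, and 53.1 and 47.2 CPM at 24 h. The only libraries above 5 CPM were those of WT cells at 24 h. After 8 h it gave 0.42 ± 0.28 in KO cells (adjusted p = 0.27) and rose by 3.96 ± 0.26 in WT cells (adjusted p = 1.49e-08). At 24 h it was lower in KO cells (-3.73 ± 0.25, adjusted p = 3.46e-08), at 7.50% of the WT mean. At 0 h, where counts were 79 and 65 in KO and 37 and 28 in WT libraries, it gave 0.97 ± 0.29 (adjusted p = 0.0711). DESeq2 called that value (0.99, adjusted p = 0.0417), as did the fit without KO 0 h replicate 2 (1.16, adjusted p = 0.0493). The WT rise by 8 h (0.73 ± 0.30, adjusted p = 0.0452) was lost without WT 0 h replicate 1 (0.93, adjusted p = 0.0584) or 2 (0.56, adjusted p = 0.222), without WT 8 h replicate 2 (0.42, adjusted p = 0.336) and with library totals (0.71, adjusted p = 0.0644). The gene Ints8 on the opposite strand covers 17.4% of Ccne2 exon bases and had 10599 counts over the 12 libraries.

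Cdk2, the kinase partner of cyclin E, and Cdc25a, the phosphatase that activates it, were also lower in KO cells at 24 h. Cdk2 (chromosome 10, 128697939 to 128705031) stood in KO cells at 61.0 and 56.2 CPM at 0 h, 48.0 and 47.1 CPM at 8 h, and 59.0 and 59.7 CPM at 24 h. WT cells had 60.7 and 67.8 CPM at 0 h, 49.0 and 51.5 CPM at 8 h, and 172 and 158 CPM at 24 h. The KO libraries at 24 h lie within the range of the KO libraries at 0 h. After 8 h Cdk2 rose by 0.32 ± 0.09 in KO cells (adjusted p = 0.0166) and by 1.72 ± 0.10 in WT cells (adjusted p = 2.54e-09). The KO rise was not called without KO 8 h replicate 2 (0.30, adjusted p = 0.0757), or without KO 24 h replicate 1 (0.32, adjusted p = 0.0809) or 2 (0.31, adjusted p = 0.0915). KO against WT, Cdk2 gave -0.13 ± 0.09 in resting cells (adjusted p = 0.52), and after 8 h -0.08 ± 0.10 (adjusted p = 0.802). It was lower at 24 h (-1.47 ± 0.09, adjusted p = 1.95e-08).

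By 8 h Cdk2 fell slightly in both genotypes, by -0.30 ± 0.09 in KO cells (adjusted p = 0.0126) and by -0.36 ± 0.09 in WT cells (adjusted p = 0.00443). The median of all genes moved by -0.10 in KO cells and by -0.15 in WT cells in these comparisons, and with RLE size factors by -0.07 in each. The KO fall was lost in the fit of the 4 libraries compared (-0.21, adjusted p = 0.218), without KO 0 h replicate 1 (-0.25, adjusted p = 0.0633) and without KO 8 h replicate 2 (-0.22, adjusted p = 0.128). The WT fall was lost without WT 0 h replicate 2 (-0.27, adjusted p = 0.0622) and without WT 8 h replicate 1 (-0.32, adjusted p = 0.0503).

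Cdc25a (chromosome 9, 109875579 to 109893895) stood in KO cells at 35.7 and 34.8 CPM at 0 h, 42.0 and 37.2 CPM at 8 h, and 46.6 and 48.2 CPM at 24 h. The WT libraries gave 29.6 and 30.2 CPM at 0 h, 50.6 and 45.0 CPM at 8 h, and 173 and 156 CPM at 24 h. KO libraries lie above WT libraries at 0 h and below them at 8 h and 24 h. By 8 h it rose in WT cells (0.68 ± 0.10, adjusted p = 3.99e-05) and gave 0.17 ± 0.10 in KO cells (adjusted p = 0.168), or 0.32 without KO 8 h replicate 2 (adjusted p = 0.0317) and 0.25 with a filter on CPM (adjusted p = 0.0477). After 8 h it gave 0.26 ± 0.10 in KO cells (adjusted p = 0.0621) and rose by 1.78 ± 0.10 in WT cells (adjusted p = 3.5e-09). The KO value was called with library totals (adjusted p = 0.0491) and without KO 8 h replicate 1 (0.35, adjusted p = 0.0472). The KO effect was 0.24 ± 0.10 in resting cells (adjusted p = 0.242), and after 8 h -0.27 ± 0.10 (adjusted p = 0.207). At 24 h it was lower (-1.79 ± 0.10, adjusted p = 5.66e-09), at 28.9% of the WT mean.

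At 24 h the inhibitors differed in direction, with Cdkn1b higher and Cdkn2c lower in KO cells. Cdkn1b (chromosome 6, 134920401 to 134925513) stood in KO cells at 233 and 244 CPM at 0 h, 47.5 and 60.8 CPM at 8 h, and 57.4 and 63.9 CPM at 24 h. In WT cells it stood at 304 and 238 CPM at 0 h, 51.5 and 53.0 CPM at 8 h, and 42.1 and 45.2 CPM at 24 h. The genotypes overlap at 0 h and 8 h, and at 24 h both KO libraries lie above. By 8 h Cdkn1b fell in KO cells (-2.14 ± 0.13, adjusted p = 3.01e-09) and in WT cells (-2.38 ± 0.13, adjusted p = 9.53e-10). Over the next interval it gave 0.16 ± 0.13 in KO cells (adjusted p = 0.366) and -0.26 ± 0.13 in WT cells (adjusted p = 0.128), the WT value being called lower when only the groups compared were fitted (-0.28, adjusted p = 0.0103). At 24 h it was higher in KO cells (0.47 ± 0.13, adjusted p = 0.01), a call lost without KO 24 h replicate 2 (0.41, adjusted p = 0.0742) or WT 24 h replicate 1 (0.44, adjusted p = 0.0721).

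Cdkn2c (chromosome 4, 109660876 to 109667189) had the lowest counts of the set, between 14 and 20 per library at 8 h. In KO cells it stood at 6.94 and 5.97 CPM at 0 h, 1.13 and 0.883 CPM at 8 h, and 5.83 and 3.99 CPM at 24 h. WT cells had 4.19 and 3.37 CPM at 0 h, 0.772 and 0.938 CPM at 8 h, and 18.4 and 16.995 CPM at 24 h. Although it encodes an inhibitor, its RNA moved with the E cyclins rather than with Cdkn1b in WT cells from 8 h to 24 h. By 8 h it fell in KO cells (-2.67 ± 0.27, adjusted p = 6.39e-07) and in WT cells (-2.14 ± 0.29, adjusted p = 1.24e-05). It then rose by 2.28 ± 0.28 in KO cells (adjusted p = 2.08e-05) and by 4.36 ± 0.28 in WT cells (adjusted p = 1.08e-08). The KO effect was 0.77 ± 0.23 in resting cells (adjusted p = 0.0742), and after 8 h 0.24 ± 0.34 (adjusted p = 0.846). It was lower at 24 h (-1.85 ± 0.22, adjusted p = 1.32e-05).

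**Figure D2:**
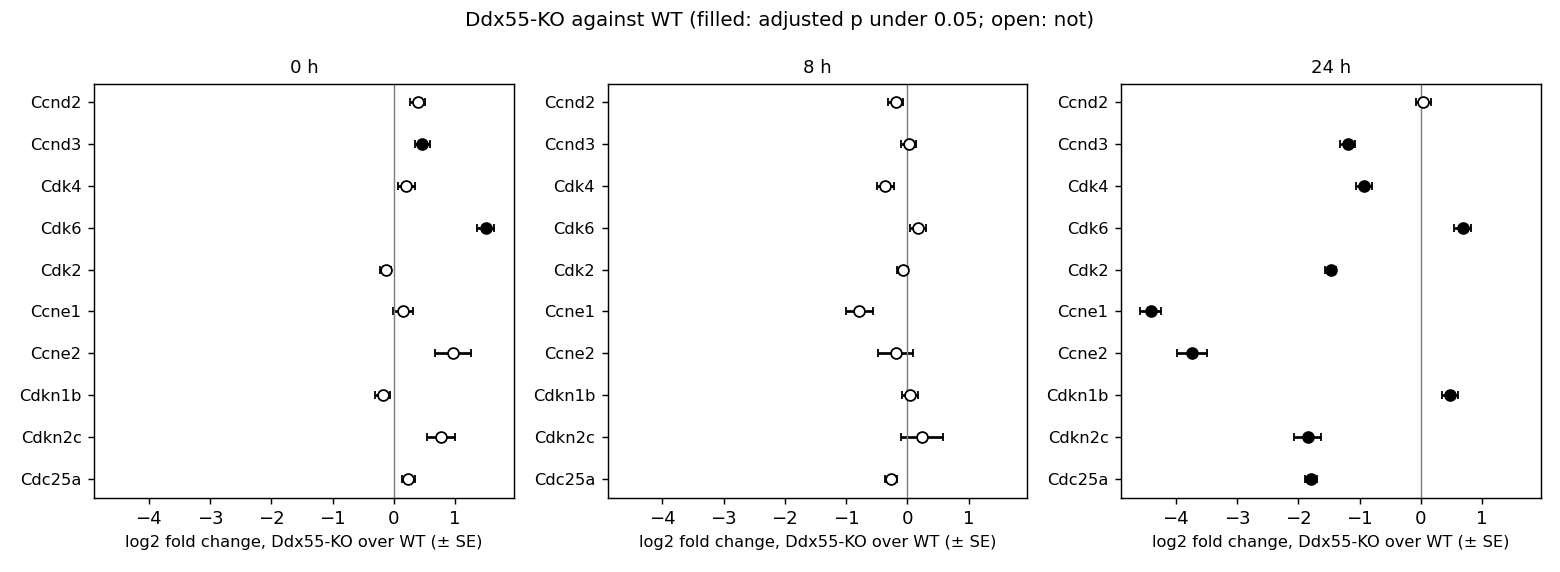
Log2 fold change of Ddx55-KO over WT (horizontal axis, ± SE) of the 10 genes at 0, 8 and 24 h; filled points passed an adjusted p under 0.05 in edgeR and open points did not. At 24 h 7 genes lie left of 0, Cdk6 and Cdkn1b lie right of it, and Ccnd2 lies at 0.04.

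At 24 h 7 of the 10 genes were lower in KO cells (Ccnd3, Cdk4, Cdk2, Ccne1, Ccne2, Cdkn2c and Cdc25a) and 2 were higher (Cdk6 and Cdkn1b). Of all genes tested 38.5% were called in that comparison, 20.7% lower and 17.9% higher. The median of the set was -1.33, against 0.02 over all genes tested. The members were chosen with earlier results of these data known, so the counts and medians of the set are descriptions. At 0 h 2 of 10 were higher (Ccnd3 and Cdk6) and 0 lower, where 5.7% of all genes were called, 4.63% higher and 1.07% lower, and the medians were 0.31 and -0.03. Where p was not adjusted (under 0.05), 6 were higher at 0 h, against 10.3% of all genes. DESeq2 called 4 higher, against 5.14% of the genes it gave an adjusted p. At 8 h 0 of 10 were called by edgeR and 0 by DESeq2, and 3 were lower where p was not adjusted (Cdk4, Ccne1 and Cdc25a), against 6.25% of all genes. By DESeq2 1.72% of genes were lower at 8 h. By edgeR 2.65% of all genes were called at 8 h, 1.9% higher and 0.746% lower.

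**Figure D3:**
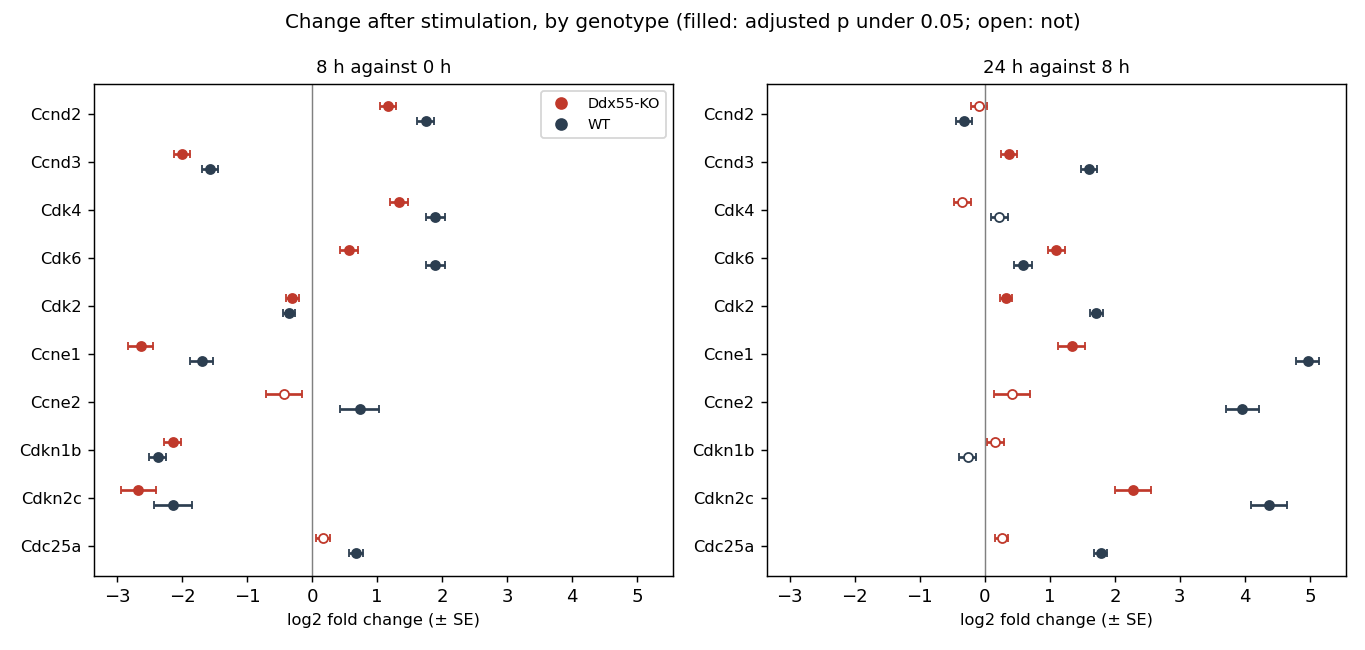
Log2 fold change (± SE, horizontal axis) of each gene from 0 h to 8 h (left) and from 8 h to 24 h (right), with Ddx55-KO in red above WT in dark blue; filled points passed an adjusted p under 0.05. In the right panel Ccne1 stands at 1.34 in KO and 4.96 in WT cells, and Cdk6 is the gene further right in KO cells (1.10 against 0.59) whose change passed in both genotypes.

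The first 8 h moved the set in both genotypes. In KO cells 3 genes rose (Ccnd2, Cdk4 and Cdk6) and 5 fell (Ccnd3, Cdk2, Ccne1, Cdkn1b and Cdkn2c), where 61.5% of all genes were called, 28.6% higher and 32.9% lower. In WT cells 5 rose, these 3 with Ccne2 and Cdc25a, and the same 5 fell, where 61.9% of all genes were called, 28.3% higher and 33.6% lower. Over the next interval 5 of 10 rose and 0 fell in KO cells (Ccnd3, Cdk6, Cdk2, Ccne1 and Cdkn2c rising), where 34.4% of all genes were called, 18.9% higher and 15.6% lower. With RLE size factors 5 rose and 1 fell (Cdk4), and with library totals 6 rose and 1 fell. In WT cells 7 rose (the same 5 with Ccne2 and Cdc25a) and 1 fell (Ccnd2), where 43.3% of all genes were called, 24% higher and 19.3% lower; with library totals 7 rose and 0 fell. These comparisons share the 8 h libraries.

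Whether the KO effect itself changed between times was tested as an interaction in the same fit. Over the first 8 h it changed for 1 of 10 genes, Cdk6, where 0.995% of all genes were called, 0.261% higher and 0.733% lower. It became lower for 7 where p was not adjusted (under 0.05), against 6.18% of all genes. DESeq2 also called Ccnd2 (-0.62, adjusted p = 0.021), in a comparison where it called 2.05% of genes lower. Leaving out KO 0 h replicate 1 added Ccnd2 (-0.76, adjusted p = 0.0359), KO 0 h replicate 2 Ccnd3 (-0.61, adjusted p = 0.0432) and KO 8 h replicate 1 Cdk4 (-0.81, adjusted p = 0.0272). After 8 h it became lower for 6 of 10 (Ccnd3, Cdk2, Ccne1, Ccne2, Cdkn2c and Cdc25a), where 14.4% of all genes were called, 5.49% higher and 8.96% lower. Ccne1 led by size (-3.62 ± 0.28, adjusted p = 8.58e-07), and Ccne2 followed (-3.54 ± 0.37, adjusted p = 1.51e-05). For Cdk4 the change was -0.57 ± 0.19 (adjusted p = 0.0612). It was called with DESeq2 (adjusted p = 0.0284), with library totals (adjusted p = 0.0434) and without KO 8 h replicate 2 (-0.78, adjusted p = 0.00471). For Cdkn1b it was 0.42 ± 0.18 (adjusted p = 0.149), and 0.61 without KO 8 h replicate 2 (adjusted p = 0.0358).

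Per length, the order of the genes changed with time. The length is the union of the exons of all annotated transcripts of a gene, so the order also depends on the annotation. At 0 h Ccnd2 led in KO cells (48.7 and 63.1 RPKM), overlapping with Cdkn1b (51.3 and 53.6 RPKM), whereas in WT cells Cdkn1b led (66.9 and 52.3 RPKM), clear of Ccnd2 (39.2 and 46.2 RPKM). Cdk4 and Ccnd3 came next in both genotypes, and Ccne2 was last, at 1.24 and 0.932 RPKM in KO and 0.625 and 0.482 RPKM in WT cells. At 8 h Ccnd2 and Cdk4 led in both genotypes, at 123 to 129 and 77.0 to 105 RPKM in KO cells and at 142 to 145 and 109 to 125 RPKM in WT cells. Below them came Cdkn1b, at 10.4 to 13.4 and 11.3 to 11.6 RPKM, and Cdkn2c came last. At 24 h KO cells kept Ccnd2 and Cdk4 on top with Cdk6 (17.45 and 17.04 RPKM) and then Cdkn1b below them, and Ccnd3 and Cdk2 overlapped. In WT cells Cdk4 (137 and 137 RPKM) stood above Ccnd2 (117 and 112 RPKM), and Ccne1 came next at 41.5 and 40.0 RPKM. In KO cells only Cdkn2c, with which it overlapped, and Ccne2 stood below Ccne1 (2.17 and 1.66 RPKM).

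Within pairs, KO cells held relatively more Cdk6 at every time. By length-scaled level Cdk6 made up 10.04% and 16.3% of Cdk4 plus Cdk6 RNA in KO cells and 6.06% and 5.45% in WT cells at 0 h. It made up 6.66% and 9.97% against 4.99% and 6.58% at 8 h, and 20.02% and 18.7% against 7.38% and 7.17% at 24 h. Each KO library lay above each WT library of its time, narrowly so at 8 h. Ccnd2 made up 92.8% and 91.5% of Ccnd2 plus Ccnd3 RNA in KO cells and 83.5% and 83.3% in WT cells at 24 h. The order was the reverse at 8 h, with 94.4% and 94.1% against 95.3% and 94.7%, and the genotypes overlapped at 0 h. At 0 h Ccne1 made up 80.8% and 81.8% of E cyclin RNA in KO cells and 88.1% and 88.8% in WT cells, and at 8 h 52.2% and 44.2% against 62.2% and 55.6%, so both KO libraries lay below both WT libraries. At 24 h the genotypes overlapped: Ccne1 made up 73.6% and 54.7% of E cyclin RNA in KO cells and 73.2% and 74.7% in WT cells. Summed, the E cyclins reached 2.95 and 3.03 RPKM in KO cells and 56.7 and 53.5 RPKM in WT cells at 24 h. These shares are descriptions, with no test. Exon length was the union over all annotated transcripts, 21 for Ccnd3 (8775 bases) and 9 for Cdk4 (3249 bases). The size of a share therefore depends on the annotation as well as on RNA.

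**Figure D4:**
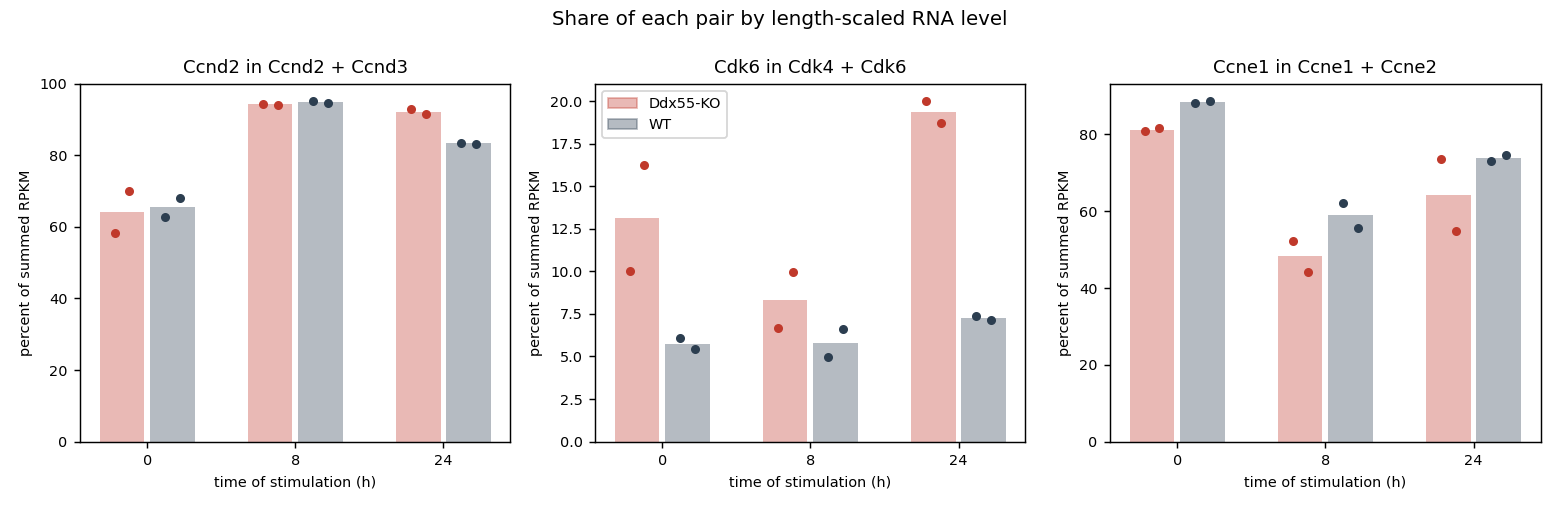
Share (percent of summed RPKM, vertical axis from 0) of Ccnd2 in the D cyclins, of Cdk6 in its kinase pair and of Ccne1 in the E cyclins at 0, 8 and 24 h; bars are means, points are libraries, and Ddx55-KO stands left of WT. Cdk6 reaches 20.02% and 18.7% in KO cells at 24 h, against 7.38% and 7.17% in WT cells.

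Other G1/S control genes were read from a list of 36, of which 34 were tested. The inhibitors Cdkn2a and Cdkn2b were too low. Like the members, the list was chosen with earlier results of these data known, so its counts and median are descriptions. At 24 h 20 of the 34 were lower in KO cells and 6 higher (median -0.67). Of all genes tested 20.7% were lower and 17.9% higher, so the share higher was near that of all genes. Lowest by p were E2f1 (6.59 and 8.68 CPM in KO against 98.0 and 92.6 CPM in WT cells; -3.64 ± 0.14) and E2f3 (-2.52 ± 0.15), which are activating E2F factors, their partner Tfdp1 (-1.37 ± 0.09), and Cks1b, a subunit of Cdk complexes (-2.04 ± 0.15). Higher were Rbl2, the pocket protein p130 of resting cells (72.8 and 73.3 CPM in KO against 30.2 and 29.1 CPM in WT cells; 1.30 ± 0.15), Cdkn1a, Foxo1, a factor of quiescence (0.76 ± 0.11), and E2f5 (0.66 ± 0.13). At 0 h 10 of 34 were higher in KO cells and 0 lower, where 4.63% of all genes were higher and 1.07% lower. Cks2 (1.62 ± 0.21), the kinase gene Wee1 (1.83 ± 0.28), cyclin A2 (Ccna2, 1.99 ± 0.27) and E2f1 (0.95 ± 0.15) led by p. At 0 h these moved together with the granulocyte and progenitor markers given above, whose part was not tested. At 8 h Cdkn1a and Rbl2 (0.64 ± 0.16) were higher and 0 of 34 lower, where 1.9% of all genes were higher and 0.746% lower.

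Cdkn1a encodes p21, an inhibitor of cyclin E with Cdk2 and a target of p53. It stood at 8.87 and 12.1 CPM in the KO cells and 1.71 and 0.241 CPM in WT cells at 0 h, at 474 and 399 against 88.0 and 97.8 CPM at 8 h, and at 1220.1 and 1061 against 56.7 and 87.6 CPM at 24 h. KO libraries lay above WT libraries at each time. In resting cells the KO effect was 3.41 ± 0.54 (adjusted p = 0.011), after 8 h 2.23 ± 0.31 (adjusted p = 0.0114) and after 24 h 3.98 ± 0.33 (adjusted p = 4.31e-05). The WT level at 0 h rests on 33 counts over both libraries, so the size of the 0 h effect is uncertain. Cyclin D1 (Ccnd1) was at 0.162 to 1.98 CPM in the KO cells and 0.293 to 0.768 CPM in WT libraries over the 3 times, and its KO effect passed at none of them (adjusted p from 0.592 to 0.9).

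Genes with the most similar course were found by the Pearson correlation of log2 CPM over the 12 libraries, among 9279 genes with a mean of at least 5 CPM. The libraries share genotype and time, so these values describe the course only. Cdk2 was most like Pola2 (r = 0.994), a DNA polymerase alpha subunit, with Dnmt1 and Zfp367 next. Cdc25a was most like Pold3 (0.996), a DNA polymerase delta subunit, with Nsd2 and the primase gene Prim1 next. Ccne2 was most like E2f1 (0.991), and Ccne1 was most like Mdh1 (0.993), with Gins3 and Cdc7, which act at replication origins, next. Cdk4 was most like Galk1 (0.996), Cdkn1b like Znrf1 (0.996), Ccnd2 like Tmem33 (0.991), Ccnd3 like Ncf4 (0.987), Cdkn2c like Mfsd10 (0.985) and Cdk6 like Scamp1 (0.97, the lowest of the set). Within the set, Ccne2 and Cdc25a were closest (0.96), Ccne1 and Cdk2 reached 0.946, and Cdk4 and Cdkn1b were the most opposed (-0.962).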

How the data were processed

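RNA of 12 libraries was deposited as raw counts per gene, 1 column per library; per the submitters' processing notes, which give no roles, the authors used mm10, STAR 2.7.1a and fastp 0.12.4. Per the labels' protocols, libraries were stranded, depleted of ribosomal RNA and read as pairs of 150 bases. The sources used here do not name the counter or its annotation. The transposable element table was not used.

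Columns were matched to labels by genotype, number and time. Symbols, positions and exon lengths came from GENCODE M21 (GRCm38), which gave 54165 of 54232 rows a symbol. Genes were kept with edgeR's filterByExpr (count 10, total 15), scaled by TMM and fitted with robust quasi-likelihood (edgeR 4.0.16, R 4.3.3; 6 groups, 6 residual degrees of freedom). There were 9 comparisons: KO against WT at each time, 8 h against 0 h and 24 h against 8 h in each genotype, and the change of the KO effect over each interval. DESeq2 1.42.0 was an alternative. Counting error is set by the counts given.

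The members, lists and markers were chosen with earlier results of these data known. The text names all members, Ddx55, Cdkn1a and Ccnd1, up to 4 listed genes per direction by p, and the 3 most similar genes per member, most of which are named. Libraries of a group differed by more than sampling noise.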

Additional observations from a re-analysis of the deposited data

Results flagged for a closer look

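The KO effect of 7 genes differed between times by the interaction test of the same edgeR fit. From 0 h to 8 h it differed for Cdk6, by -1.32 on the log2 scale: the KO effect was 0.17 at 8 h, against 1.495 at 0 h. From 8 h to 24 h it differed for Ccne1 by -3.62 (KO effect -4.41 at 24 h, against -0.78 at 8 h) and for Ccne2 by -3.54 (-3.73 against -0.19). It differed for Cdkn2c by -2.09 (-1.85 against 0.24), for Cdc25a by -1.52 (-1.79 against -0.27), for Cdk2 by -1.39 (-1.47 against -0.08) and for Ccnd3 by -1.22 (-1.19 against 0.02). All 10 genes were tested in both comparisons, and p-values were adjusted over all 15679 genes.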

How the results depend on the processing

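Of 1250 values of single genes of the set under the alternatives run, 0 reversed a call, 1161 kept their side of the threshold, 58 passed it only under the alternative and 31 no longer did. At 24 h KO against WT, 2 of 130 moved across it, both Cdkn1b with a library left out. At 0 h KO against WT, 2 genes of the set and 893 of all genes were called: 5 of the set with no filter, 4 with DESeq2, 1 and 464 with only the groups compared, 5 and 1895 without the 3 KO libraries numbered 2 (chosen after seeing the data), and 1 to 3 and 348 to 1079 with a library left out. At 8 h, 0 and 415 were called: 2 and 862 with no filter, 669 of all genes with DESeq2, 1 and 669 with the replicate block, 2 and 1215 without the 3 KO libraries numbered 1 (also chosen later), and 0 to 1 and 103 to 438 with a library left out. When the KO effect at 8 h was set against that at 0 h, 1 and 156 were called: 5 and 445 with no filter, 2 and 299 with DESeq2, 60 of all genes with only the groups compared, 3 and 304 without the KO libraries numbered 1, 2 and 284 without those numbered 2, and 1 to 2 and 48 to 317 with a library left out. From 8 h to 24 h in KO cells, leaving out a library gave 3 to 5 genes of the set, and, for the KO effect at 24 h set against 8 h, 1427 to 2092 of all genes (2265 called with all libraries). At 0 h KO against WT, all genes called numbered 1334 with no filter and 944 with DESeq2. For KO at 24 h against 8 h, 5 genes of the set and 5397 of all genes were called with all libraries. Fewer of all genes were called there when a library of either time was left out. The cause of these moves was not tested.

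The labels give both genotypes replicate numbers 1 and 2. Same-numbered libraries deviated together in 8 of 15 pairs of groups (r over 0.1; range -0.10 to 0.29). These include the pairs among the KO groups (0.288 for 0 h with 8 h, 0.222 for 8 h with 24 h, 0.111 for 0 h with 24 h) and KO with WT at 0 h (0.241), but not KO with WT at 24 h (0.0101). The KO library numbered 2 had the larger basophil and mast cell sum at each time. The labels do not say what a number marks. With the number as a replicate block, Ccne1 at 8 h (-0.79, adjusted p = 0.0407) and Cdkn2c at 0 h (0.77, adjusted p = 0.0403) passed for KO against WT. So did Cdk4 (-0.33, adjusted p = 0.0409) and Cdc25a (0.26, adjusted p = 0.0463) for KO at 24 h against 8 h, which gave 6 higher and 1 lower, and the change of the KO effect after 8 h of Cdk4 (-0.56, adjusted p = 0.0327) and Cdk6 (0.51, adjusted p = 0.048). The block changed no other call of a gene of the set. With 2 libraries a group the spread is estimated over all groups; Cdkn2c had 14 to 20 counts per library at 8 h. With a library left out, the lone one is assumed to vary like the other groups.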

Other observations

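Ratios between genes of the set and Cdkn1a were read as descriptions. Cdkn1b RNA per Ccnd2 RNA, both per length, was 1.05 and 0.849 in KO cells and 1.71 and 1.13 in WT cells at 0 h. It was 0.085 and 0.103 against 0.0799 and 0.0803 at 8 h, and 0.102 and 0.125 against 0.0789 and 0.0884 at 24 h. Each KO library lay below both WT libraries at 0 h and above both at 8 h and 24 h. Cdkn1a RNA per Cdk2 RNA was 0.254 and 0.378 in KO and 0.0494 and 0.00622 in WT cells at 0 h, 17.3 and 14.8 against 3.15 and 3.32 at 8 h, and 36.2 and 31.1 against 0.577 and 0.971 at 24 h. The WT ratios at 0 h rest on 33 Cdkn1a counts over both libraries.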
